A study of Mus musculus with 3 samples.

Results

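The family of miR-28 and miR-151 was followed as 3 mouse hairpins, Mir151, Mir28a and Mir708, chosen by name from 2201 annotated miRNA hairpins, and its sequenced ends were described on both arms in every library. Their reads were found on the chromosome and strand of each gene, either through the abundances in the study's supplementary list of expressed miRNAs or by the hairpin sequence. Of 12261 5′-starts with at least 10 reads in every library of the series, 15 belonged to these hairpins. The study profiled small RNA of MIN6, a mouse insulinoma line used in place of pancreatic beta cells, grown in DMEM with 25 mM glucose and heat-inactivated fetal bovine serum. It comprised 3 libraries, described in the study's methods as biological replicates, and 1 condition. The libraries held 9269795, 10816006 and 10218743 mapped reads in replicates 1, 2 and 3, so that a count of 0 allowed up to 3 reads, or 0.324, 0.277 and 0.294 RPM (reads scaled to 1000000 mapped reads), and levels differed between libraries by more than sampling noise.

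A miRNA hairpin is cut by Drosha at its base and by Dicer near its loop, which leaves a 5p and a 3p mature strand, and the strand loaded into Argonaute pairs with messenger RNAs mainly through its seed, bases 2 to 8. A 5′-shifted isomiR starts some bases away from the reference start and therefore has another seed, whereas 3′-ends vary through trimming and through the addition of uridine or adenine by terminal transferases. The primary transcript of miR-151 is also a known substrate of adenosine deaminases, which turn adenosine into inosine, read as guanine.

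Mature sequences of Mir28a and Mir708, from RefSeq on GRCm38.p6, are shown because the seeds that members share, in capitals (bases 2 to 8), depend on the exact start.
miR-28a-5p: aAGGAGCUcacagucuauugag
miR-708-5p: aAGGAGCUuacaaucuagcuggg
miR-28a-3p: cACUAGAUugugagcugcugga
miR-708-3p: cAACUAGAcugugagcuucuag
miR-708-3p+1, starting 1 base downstream: aACUAGACugugagcuucuag

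The 5p arms of Mir28a and Mir708 shared the seed AGGAGCU, and 15 of their first 21 bases were identical. The rule that defined the family has all 5p arms share a seed, which Mir151 did not meet at its reference start. In miR-151-5p the 7 bases of that seed lay at positions 4 to 10, so miR-151-5p began 2 bases upstream of the register of its relatives. From that point miR-151-5p and miR-28a-5p were the same over a run of 16 bases, positions 4 to 19 of the former and 2 to 17 of the latter. The 3p arms had no seed in common at their reference starts. There, positions 1 to 8 of miR-151-3p matched positions 4 to 11 of miR-708-3p, and positions 1 to 5 of miR-151-3p matched positions 3 to 7 of miR-28a-3p.

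All 3 hairpins lay in introns of protein-coding genes on the same strand. Reads of Mir151 were placed on chr15:73085245-73085312, minus strand, in an intron of Ptk2, the gene of focal adhesion kinase, and the annotation also has an intron of the antisense transcript 1700085D07Rik there. Mir28a reads lay on chr16:24827941-24828026, plus strand, in an intron of Lpp, which encodes a LIM domain protein of focal adhesions. Mir708 reads lay on chr7:103397934-103398042, plus strand, in an intron of Tenm4, which encodes a teneurin. These positions are those of the deposited alignments, on mm9, whereas the hairpin sequences and host genes came from the GRCm38 annotation. Placement by sequence rested on 104.4 bits for Mir151 and 48.9 bits for Mir28a, but on only 17.7 bits for Mir708, whose next best position scored 9.74 bits. At the placed position, the leading starts of both Mir708 arms fell on the RefSeq mature starts.

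Of the cell type markers, miR-375, an islet endocrine miRNA, had 345184, 368905 and 383022 RPM at its hairpin. Other endocrine markers were far lower, at 139 ± 34.5 RPM (SD, n = 3) for the miR-184 hairpin, and 210 ± 22.9 and 195 ± 21.2 RPM (SD, n = 3) for the starts of miR-7a-1-5p and miR-7a-2-5p. The hairpin Mir124a-1 of miR-124, a neuronal marker, held 54.4 ± 3.93 RPM (SD, n = 3), but its placement rested on 15.4 bits, close to the minimum of 15. Reads that fit several loci are divided among them, so the values of miR-124 and miR-7a are those of single loci and not of the whole miRNA. Hairpins of the acinar markers miR-216a and miR-217 and of the blood markers miR-142 and miR-223 could not be placed by sequence, and no level is given for them. Mir9-2, the hairpin tried for the neuronal miR-9, missed the minimum narrowly, at 14.6 bits against 6.6 for its next position, and is given no level either.

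The 3 hairpins differed in abundance by orders of magnitude, with Mir151 far ahead. Together they held 6003, 5238 and 4817 RPM in replicates 1, 2 and 3, and Mir151 supplied 94.6% ± 0.617 of these reads (SD, n = 3). Mir28a supplied 4.75% ± 0.536, and Mir708 only 0.674% ± 0.0857 (SD, n = 3). Since the line was sequenced in bulk, fewer cells that express a miRNA and less of it in each cell cannot be told apart.

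miR-151-3p was the most abundant arm, at 3823, 3191 and 2754 RPM (mean 3256 ± 538, SD, n = 3). miR-151-5p followed with 1883, 1774 and 1768 RPM (1809 ± 64.6). The 3p arm was highest in replicate 1 and lowest in replicate 3, and its coefficient of variation was 16.5%, against 3.57% for the 5p arm of the same hairpin. miR-28a-5p was found at 181, 170 and 191 RPM (181 ± 10.4), and miR-28a-3p at 78.0, 70.1 and 66.8 RPM (71.6 ± 5.74). miR-708-3p was found at 29.9, 25.1 and 29.6 RPM (28.2 ± 2.64), and miR-708-5p at 8.09, 7.21 and 7.68 RPM (7.66 ± 0.440). No neighbours in this order of 6 arms overlapped between libraries. The smallest gap was the 1.80-fold difference of the miR-151 arms, and the largest was the 10.0-fold difference of miR-151-5p and miR-28a-5p. miR-708-5p rested on 75 to 78.5 reads per library, and its counting interval in replicate 1 ran from 6.36 to 10.1 RPM (95%, exact Poisson). With only the reads that match the genome exactly, the 6 arms had 2058, 1316, 112, 52.2, 20.2 and 3.94 RPM in the same order.

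**Figure D1:**
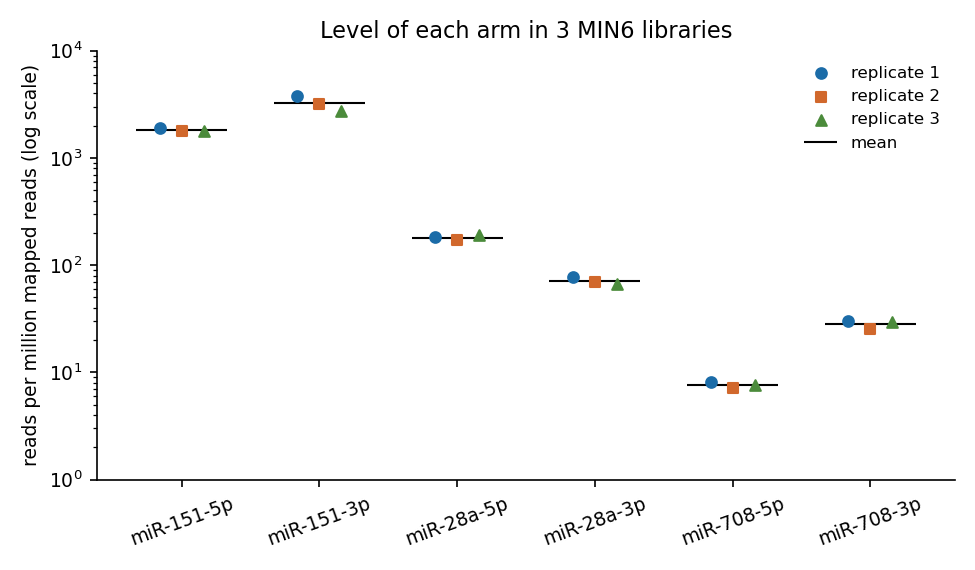
RPM of the 6 arms on a log axis, with a point for each of the 3 libraries and a line at their mean. The arms span from 3256 RPM for miR-151-3p to 7.66 RPM for miR-708-5p, and no neighbours in the order overlap.

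Which strand had more reads differed among the members. The 3p strand exceeded the 5p strand in Mir151, with ratios of 2.03, 1.80 and 1.56 in replicates 1, 2 and 3 (1.80 ± 0.237, SD, n = 3). In Mir28a the 5p strand prevailed, and the ratio of 3p to 5p was 0.431, 0.412 and 0.350 (0.398 ± 0.0421). Mir708 again favoured the 3p strand, with ratios of 3.69, 3.49 and 3.85 (3.68 ± 0.181). Thus Mir28a and Mir708, which share the 5p seed, had opposite strands in excess in all 3 libraries. The two-sided exact permutation test over libraries gave p = 0.25 for each hairpin, the smallest value that 3 libraries allow.

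The ratio of Mir151 was not constant. Its 3p share was 67.0% in replicate 1 (95% Wilson interval 66.6 to 67.4), 64.3% in replicate 2 (63.9 to 64.7) and 60.9% in replicate 3 (60.4 to 61.3). These intervals did not overlap. Like all intervals here, they cover only counting error and not variation between libraries. The reads carry no molecular identifiers, so repeated copies of 1 molecule are not told apart and the intervals may be too narrow. At the reference starts the highest ratio of Mir151 exceeded the lowest 1.31-fold, and that of Mir28a 1.27-fold, with the same libraries at the extremes. Among 18 other hairpins with both arms placed, the median was 1.13-fold, and 4 exceeded Mir151. The ratio was highest in replicate 1 and lowest in replicate 3 in 4 of these 18. What set the libraries apart was not tested.

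The miRNAs whose levels moved most like miR-151-3p over the 3 libraries, by the Euclidean distance of centred log2 RPM among 183 starts, came from other loci. They were miR-331-3p, at a distance of 0.02, miR-345-5p, at 0.02, and miR-210-3p, at 0.05. miR-331-3p measured 291, 247 and 210 RPM, miR-345-5p 36.2, 30.1 and 26.6 RPM, and miR-210-3p 1337, 1120 and 1004 RPM. Each was highest in replicate 1 and lowest in replicate 3. miR-151-3p-2, the isomiR that starts 2 bases upstream, lay at a distance of 0.10, and miR-151-5p, from the opposite arm, at 0.27. With 3 libraries of 1 condition these distances describe the libraries alone.

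The 5′-starts of miR-151 varied less than those of the 3p arms of its relatives. Within 5 nt of the reference start, miR-151-3p had 3.12%, 3.16% and 3.03% of its reads at shifted starts (3.10% ± 0.0658, SD, n = 3). miR-151-5p had 2.24%, 2.14% and 2.06% (2.15% ± 0.0920). In both arms of Mir151 the shifted reads lay mostly upstream, on average 79.9% of them in the 3p arm and 93.8% in the 5p arm.

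miR-28a-5p was the most precise arm of its hairpin, with 1.22%, 1.26% and 1.07% shifted. miR-28a-3p had 8.58%, 9.58% and 11.1% (9.76% ± 1.29, SD, n = 3), and here 21% of the shifted reads lay upstream. With exact reads alone its shifted share was 5.15%. miR-708-3p had 10.8%, 11.8% and 11.6% (11.4% ± 0.497), with 12.5% of them upstream, and 13.6% shifted with exact reads alone. The direction of the shift therefore differed between the 3p arm of Mir151 and those of Mir28a and Mir708. miR-708-5p had 1, 3 and 1 shifted reads, too few to describe.

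For comparison, the median over 138 leading starts from the study's list with at least 1000 reads was 1.52%, with quartiles of 0.487% and 4.46%. miR-151-3p was exceeded by 46 of the other 137 starts and miR-151-5p by 53 of them. Set against all 138, miR-28a-3p was exceeded by 22 and miR-708-3p by 19. Over all 334 leading starts with at least 1000 reads, not limited to miRNAs, the median was higher, 4.57%, with quartiles of 1.06% and 24.9%. There miR-151-3p was exceeded by 189 and miR-151-5p by 210 of the other 333, so both lay above the median of the study's list but below that of all starts.

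**Figure D2:**
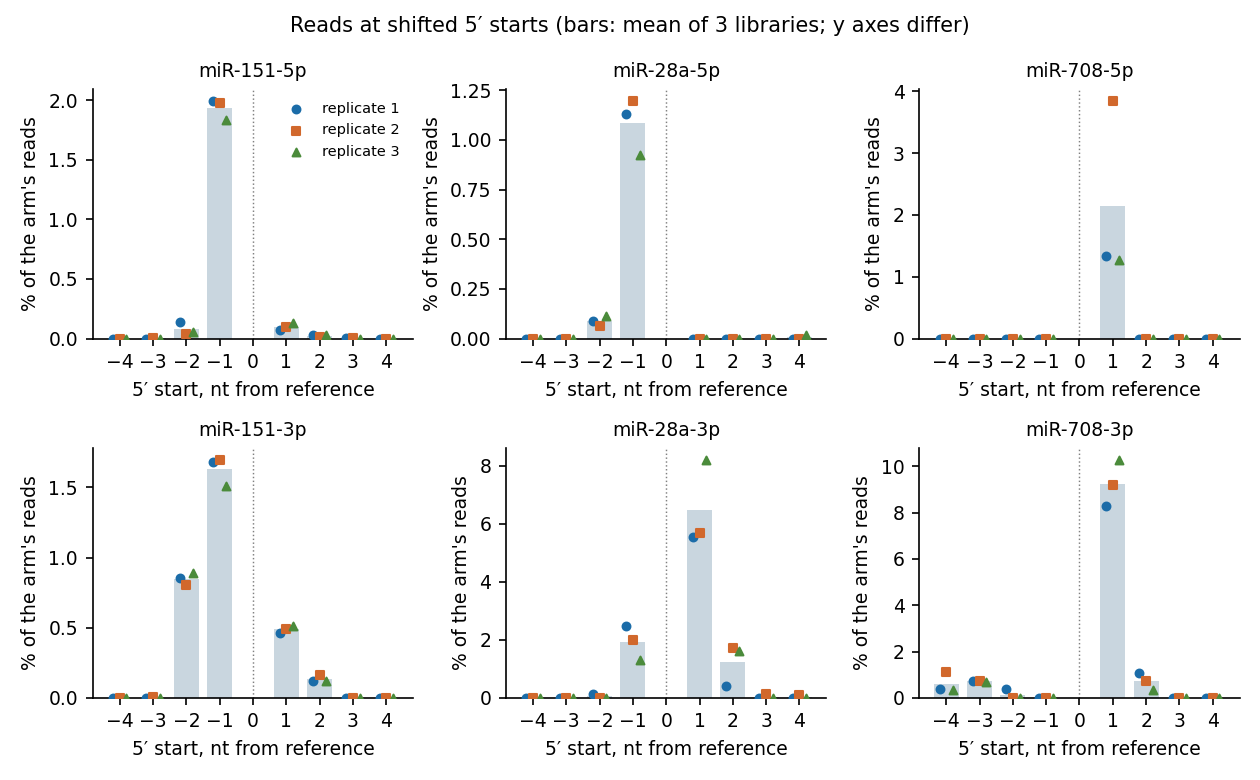
Share of the reads of each arm at starts 1 to 4 nt upstream (negative) or downstream (positive) of the reference start, which is left out. Bars are means of 3 libraries, points the libraries, and the vertical scales differ; the bar at +1 reaches 9.25% in miR-708-3p and 6.47% in miR-28a-3p, whereas the miR-151 arms peak at -1.

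miR-151-3p had 4 shifted starts with at least 10 reads in every library. The largest was miR-151-3p-1, with 596, 585 and 424.5 reads, or 64.3, 54.1 and 41.5 RPM. miR-151-3p-2 had 304, 277 and 250 reads, or 32.8, 25.6 and 24.5 RPM (27.6 ± 4.52, SD, n = 3). Both upstream forms were thus more abundant than either downstream form, miR-151-3p+1 at 15.8 ± 1.70 RPM and miR-151-3p+2 at 4.34 ± 1.03 RPM. miR-151-3p-2 was of the same order as the whole reference start of miR-708-3p (25.0 ± 2.44 RPM), and the ranges of these 2 starts overlapped. With exact reads alone miR-151-3p-1 fell to 24.4 RPM, miR-151-3p-2 to 15.2, miR-151-3p+1 to 10.3 and miR-151-3p+2 to 0.953, and miR-151-3p-2 was then below the miR-708-3p start (17.5).

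Relative to its reference start, miR-151-3p-2 was minor. It had 0.885, 0.829 and 0.916 reads per 100 reference reads (0.877 ± 0.0444, SD, n = 3). The shifted 3p starts of the study's list ranged widely. Among 6 named for comparison, the shifted start exceeded the reference in miR-140-3p (195 ± 31.0 per 100), miR-101a-3p (215 ± 10.5), miR-101b-3p (178 ± 7.26), miR-483-3p (255 ± 8.10) and miR-136-3p (773 ± 33.1). miR-27b-3p had a smaller share than miR-151-3p, 0.450 ± 0.0170 per 100. Over all 13 other shifted 3p starts of the list that could be placed with their reference, a set compared after the data were seen, 8 were below their reference, the median was 16.9 per 100, and 2 were below miR-151-3p-2. The 2 shifted starts of miR-375-3p, at 1.24 and 1.95 per 100, were close to it.

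Shifted starts brought seeds of different members together. The seed of miR-151-3p-2 was identical to that of miR-708-3p+1, ACUAGAC in the sequence above. miR-708-3p+1 had 23, 25 and 31 reads, or 9.28% of its arm, compared with 0.847% of its own arm for miR-151-3p-2. In absolute terms miR-151-3p-2 was the larger source, at 32.8, 25.6 and 24.5 RPM against 2.48, 2.31 and 3.03 RPM. Similarly, miR-151-3p-1 had the seed of miR-708-3p+2, which had 3, 2 and 1 reads. On the 5p side, miR-151-5p would take on the seed AGGAGCU by starting 2 bases downstream, and this start had 5, 3 and 6 reads, or 0.0256% of the arm. Nearly all AGGAGCU seeds of the family therefore came from miR-28a-5p, with 179, 168 and 189 RPM, whereas miR-708-5p added 7.98, 6.93 and 7.58 RPM.

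The 3′-ends of miR-151-3p moved with the starts 2 bases away, and less clearly with those 1 base away. Counted from the reference start and before any mismatching tail, the last matching base of miR-151-3p was most often base 21 (53.8%, 53.2% and 53.3% of reads). That of miR-151-3p-2 was base 20 (57.6%, 61.0% and 59.2%), and that of miR-151-3p+2 was base 23 (85.7%, 86.0% and 84.8%). Starts 2 bases upstream thus went with an upstream end, and starts 2 bases downstream with a downstream end. miR-151-3p-1 kept the leading end of the reference, base 21 (55.3% ± 1.23), but had base 20 in 32.7% ± 0.995 of reads, more than the reference (16.6% ± 0.481, SD, n = 3). miR-151-3p+1 had no single leading end, with 36.6% ± 3.70 at base 23, 28.9% ± 5.40 at base 21 and 27.8% ± 3.33 at base 22, and base 21 led in replicate 3. miR-28a-3p also had a moved end, ending at base 22 in 81.4% ± 2.57 of reference reads and at base 23 in 85.8% ± 4.89 of miR-28a-3p+1 reads (SD, n = 3). By contrast, miR-151-5p and miR-151-5p-1 had the same leading end, base 21, with 73.6% ± 1.06 and 60.9% ± 3.74 of reads, so that the upstream form was 1 base longer.

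**Figure D3:**
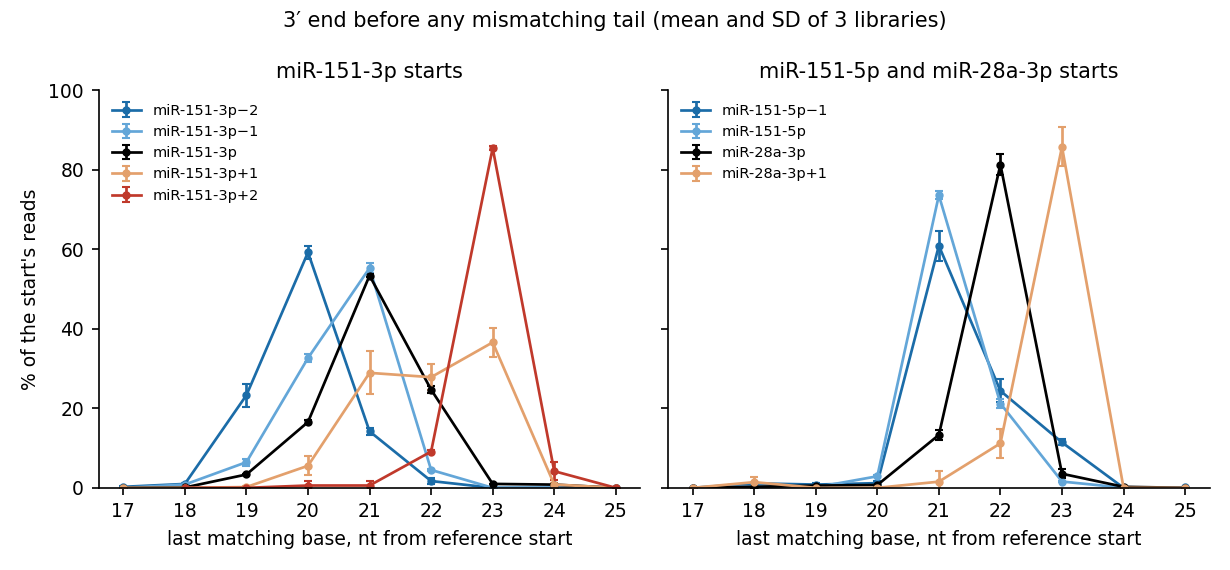
Share of the reads of each start by the last base that matched the genome, counted from the reference start of the arm, as mean and SD of 3 libraries. On the left, the leading end of miR-151-3p moves from base 20 for the start at -2 to base 23 for the start at +2; on the right, miR-151-5p and miR-151-5p-1 both peak at base 21, and the peak of miR-28a-3p+1 lies 1 base beyond that of miR-28a-3p.

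Ends differed between members too. miR-28a-5p had 2 favoured ends, base 22 in 55.4% ± 1.79 and base 20 in 23.8% ± 0.497 of reads, with base 21 between them in only 12.9% ± 0.679 (SD, n = 3). miR-708-3p showed the same gap, with 45.7%, 49.2% and 55.1% at base 22, but 28.1% ± 4.22 at base 20 and 5.73% ± 0.810 at base 21. Its relative miR-28a-3p had a single favoured end, base 22, with 13.3% ± 1.35 of reads at base 21. miR-708-5p was the longest, with 42.8% ± 5.06 of its 74 to 77.5 reads at base 23.

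Mismatching 3′-tails differed in frequency and kind among the arms, within the limit that a base added after the end is seen only where it differs from the genome. At the reference start of miR-151-3p, 31.3%, 31.6% and 31.5% of reads carried a tail (31.5% ± 0.175, SD, n = 3), mostly a single uridine (20.6%), with 4.40% holding 2 or more uridines and 4.32% a single adenine. miR-151-5p had visible tails in 3.31%, 2.96% and 3.29% of reads. Most of its reads ended where adenine (base 21) or uridine (base 22) could not be seen, and 20.4% ± 3.16 of the 274 to 292 reads that ended at base 23, where both could be seen, carried a tail.

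miR-28a-5p carried tails in 14.2%, 14.5% and 14.6% of reads, and the visible ones mostly ended in adenine: 12.6% of reads ended in a mismatching adenine and 1.42% in a mismatching uridine. miR-28a-3p carried them in 21.3%, 22.5% and 19.4% of reads, with uridine (10.4%) and adenine (10.1%) at the end about equally often. miR-708-3p had 42, 44 and 56 tailed reads, or 18.8% ± 2.02 (SD, n = 3), almost entirely with uridine (18.4%) and with adenine at 0.125%. miR-708-5p had 23, 12 and 19 tailed reads (23.9% ± 7.56), but only 9.24% of all reads of this start had a tail of 1 base and no other mismatch.

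The genome hid part of the tails in other arms too. After base 21 of miR-151-3p the genome has adenine, so an adenine added there counts as a matching base and moves the matching end to base 22. The same holds for uridine after base 22 of miR-28a-5p, where the genome codes for uridine, and for adenine after base 22 of miR-708-3p. The prevalence of adenine at the end of miR-28a-5p and of uridine at that of miR-708-3p was therefore measured mainly at ends where the other base could not be seen. At base 21 of miR-28a-5p, where both could be seen, 4.80% ± 1.39 of the 223 to 237.5 reads were tailed, with uridine last in 1.73% and adenine last in 1.71%, so adenine did not prevail there. miR-28a-3p had no such restriction at its leading end, base 22, which is followed by guanine. After its base 21, where 13.3% of reads ended, the genome has adenine, so an adenine added there was hidden.

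Visible tailing varied with the matching end. In miR-151-3p, 26.3% ± 0.643 of reads that ended at base 20 carried a tail, 29.0% ± 0.163 at base 21 and 42.1% ± 0.702 at base 22 (SD, n = 3). Different bases were hidden at these ends, so the shares do not compare tailing itself. In miR-708-3p the share was 34.7% ± 0.122 at base 22 and 0.565% ± 0.979 at base 20, ends that both show uridine and hide adenine. It was 18.7% ± 4.40 at base 21, from 13 to 16 reads, and 0.980% ± 1.70 at base 23, where both bases could be seen, so visible tails were mainly found on reads ending at bases 21 and 22. miR-151-3p+2 was tailed most often among the starts named, in 71.4%, 70.2% and 72.7% of its 42, 57 and 33 reads, and miR-28a-3p+1 was tailed in 41.1% ± 6.82. miR-151-3p-2 was close to its reference, at 35.8% ± 2.96.

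Against 183 starts of the study's list, of which the median was tailed in 7.88% of reads, miR-151-3p was exceeded by 17 of the other 182 and miR-151-5p by 132. Over all 388 starts with at least 1000 reads, again not limited to miRNAs, the median was 2.81%. There miR-151-3p was exceeded by 31 and miR-151-5p by 183 of the other 387, which put miR-151-5p above this median. A tail of 1 base without any other mismatch was found in 2.08% of all reads of the miR-151-5p start. No median was computed for such tails, so the place of miR-151-5p by this measure is not known. For adenine at the end, with a median of 1.46%, miR-28a-5p was exceeded by 3 and miR-28a-3p by 5 of the other 182. For uridine, with a median of 4.40%, miR-708-3p was exceeded by 29 of all 183.

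**Figure D4:**
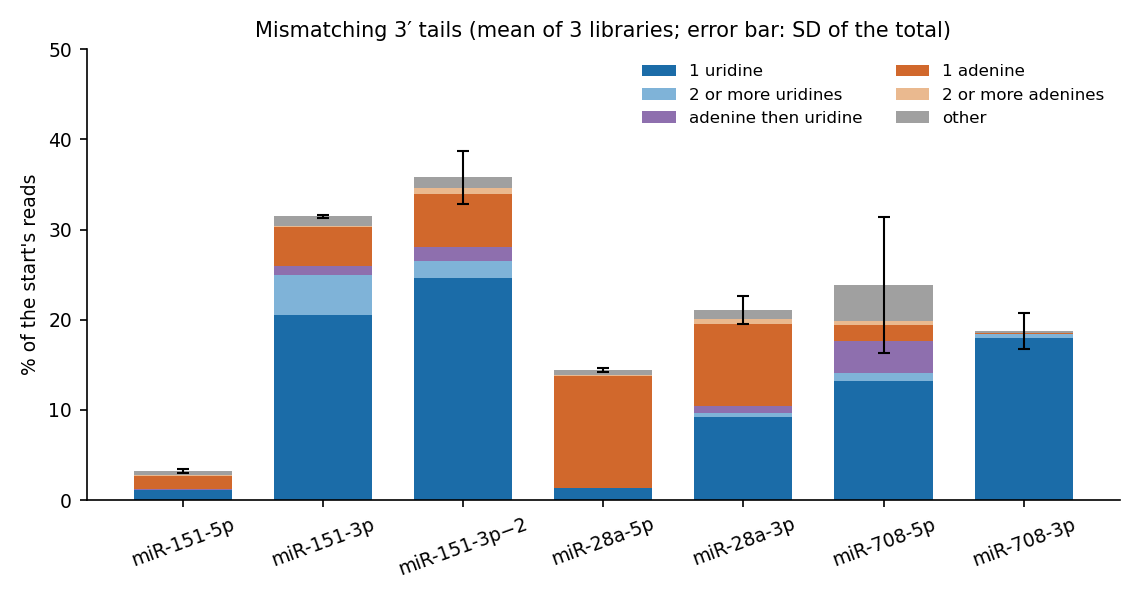
Share of reads with a mismatching 3′-tail at the 6 reference starts and at miR-151-3p-2, divided by tail; bars are means of 3 libraries and error bars the SD of the total. Uridine makes up most of the tails of miR-151-3p and miR-708-3p, adenine most of the visible tails of miR-28a-5p, and miR-151-5p has few visible tails (3.19%).

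Inside the mature sequences, the commonest mismatch was cytosine in place of adenine. Positions are counted from 1 at the 5′-end of the read, and the reference base is given first. A12C was seen in 22.3%, 22.9% and 22.3% of miR-151-5p reads, in 16.6%, 14.8% and 16.5% of miR-28a-5p reads, and in 11, 12 and 10 reads of miR-708-5p (14.6% ± 1.57, SD, n = 3). The same mismatch recurred at position 12 in other miRNAs: over 20 of them with adenine there, the median was 19.4% and the range 12.8% to 22.7%. Position 10 was alike, with A10C in 8.84% ± 0.654 of miR-28a-5p reads and a median of 12.8% over 19 others, and so was position 6, with A6C in 11.8% ± 0.671 of miR-708-3p reads and a median of 9.07% over 23 others. At positions 13 and 14 the medians were 0.0226% and 0.00285%. The mismatch thus went with the position in the read, in the family and in other miRNAs. A9C of miR-151-3p, with 4.26%, 3.94% and 4.12%, lay above the range of 17 others, which reached 3.79%. The mean of A7C in miR-28a-3p, 1.06%, also exceeded the range of 31 others (at most 0.915%), but it rested on 9, 8 and 4 reads, lay within that range in replicate 3 (0.659%) and was 0.913% without replicate 1. The cause of these mismatches was not tested.

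**Figure D5:**
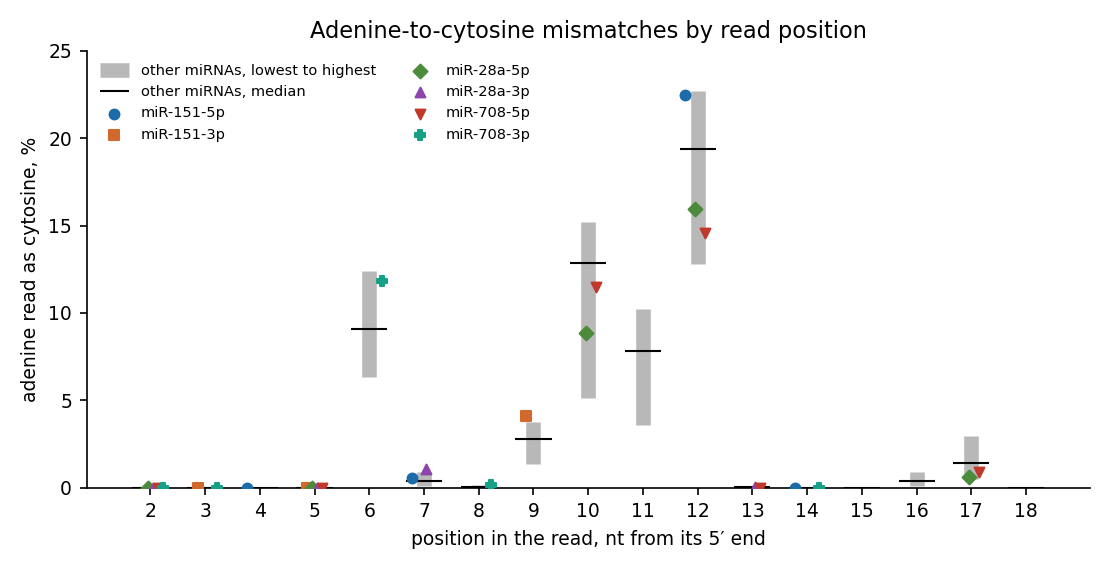
Share of reads with cytosine in place of a genomic adenine, by position in the read, for the 6 arms (points, mean of 3 libraries) and for other miRNAs (grey, lowest to highest, with the median). Shares above 5% occur at positions 6, 10 and 12 in the family and at 6, 10, 11 and 12 in the other miRNAs (no arm of the family has adenine at 11), and miR-151-3p at position 9 (4.11%) and miR-28a-3p at position 7 (1.06%) lie above the range of the others there.

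Guanine in place of adenine was rare but concentrated at base 3 of miR-151-3p, within its seed. A3G was seen in 104, 117 and 80 reads of the reference start, or 0.303%, 0.350% and 0.293% (0.315% ± 0.0304, SD, n = 3). Over 34 other miRNAs with adenine at position 3 the median was 0.00596% and the highest 0.0359%. Over 427 adenine positions of all comparison miRNAs, only A5G of miR-411-5p, at 1.47%, was higher. The next highest adenine of miR-151-3p, base 9, had A9G in 0.124% of reads, which also lay above the range of 17 others at that position (at most 0.0761%). A6G of miR-708-3p reached 0.409% but rested on 2, 1 and 0 reads. Whether the guanine reads came from deamination was not tested.

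Reads with guanine at base 3 also started upstream more often, a comparison chosen after its values were seen. In miR-151-3p-1, where base 3 is position 4 of the read, A4G was seen in 14 of 596, 9 of 585 and 14 of 424.5 reads. These are 2.35% (95% Wilson interval 1.40 to 3.90), 1.54% (0.811 to 2.90) and 3.30% (1.97 to 5.46), each above the interval of the reference start in the same library. The share was 7.76, 4.40 and 11.2 times that of the reference start. Put the other way, 11.8%, 7.14% and 14.9% of the guanine reads began at -1, compared with 1.68%, 1.69% and 1.51% of all reads of these starts. Over 19 other miRNAs with adenine at position 4, A4G was at most 0.141%. miR-151-3p-2 had guanine at base 3 in 1 of 831 reads pooled over libraries (95% Wilson interval 0.0212% to 0.678%), so the upstream excess was seen at -1 and not at -2. The base before the reference start, also adenine, was read as guanine in 1 of 1605.5 reads of miR-151-3p-1 and in 0 of 831 reads of miR-151-3p-2.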

How the data were processed

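Adaptors had been removed with cutAdapt 1.0. Bowtie 0.12.7 placed reads of 14 to 41 nt that matched mm9 exactly (build from the submitters' processing notes). Stretches closer than 65 nt were joined (bedtools 2.17.0) and widened by 5 nt, and there SHRiMP 2.2.2 placed other reads, with up to 1 mismatch in the body and 3 at the 3′-end. A miRNA without exact reads nearby could not gain mismatched ones. The deposited unit is expected counts: reads of an alignment, divided among equally good loci.

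Computation used Python 3.11.15, numpy 2.4.6, pandas 2.3.3, scipy 1.17.1 and matplotlib 3.10.9. Exact alignments ended 1 base early, which was corrected. Expected counts were summed by 5′-start within 5 nt of each reference start, without rounding, and divided by all mapped reads (RPM). Starts were matched to the study's list within 0.2%, and 183 of 199 names had 1 position. Hairpins were placed by the bases that mismatches exclude, in bits, with at least 15 bits and a margin of 5 over the next position. These limits were chosen after seeing the data and tried on simulated data. The simulated mismatches fell on random positions and bases, unlike those of the reads, so this trial does not show how safe the limits are here. A tail is an unbroken run of mismatching bases at the 3′-end, and internal mismatches were counted at positions 2 to 18. Comparison mismatches came from 98 starts with a RefSeq sequence and at least 1000 reads in every library, and 1 more was left out for conflicting bases.

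Named items were the 6 arms, every start of theirs with at least 10 reads in each library, overlapping or read-sharing hairpins, the 3 starts nearest miR-151-3p by pattern, 6 shifted 3p starts of the study's list and the cell type markers. Mir28b and Mir28c could not be placed (at most 7.7 bits). The members and lists were chosen with earlier results of these data known. The only test was the exact permutation of signs over libraries, as the 3 libraries share 1 condition. No 2 libraries were copies of each other (chi-square per degree of freedom 93.1 to 337 over 388 starts, against counting noise alone). Alternatives were single-locus or exact reads, 18 to 25 nt, other denominators, starts within 2 nt and the reference start alone. Further alternatives were leaving out each replicate and tails of 1 base without other mismatches, as a share of all reads of the start.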

Additional observations from a re-analysis of the deposited data

Results flagged for a closer look

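Reads that began inside a hairpin but outside the arm windows exceeded the 3 reads that a count of 0 allows in 4 cases: Mir708 in replicate 3, with 6 reads, Mir28a in replicates 1 and 3, with 4 reads each, and Mir151 in replicate 1, with 4 reads. In Mir708 most were of a single kind. Reads of 23 nt, all without a mismatching tail, started at base 50 of the hairpin and ended at base 72, with 2, 3 and 6 reads in replicates 1, 2 and 3. The leading end of miR-708-5p is base 49 and the 3p arm starts at base 73, so these reads filled the stretch between the arms exactly. In Mir28a the reads began at bases 22 and 36 of the hairpin, and in Mir151 mostly at base 64, reaching beyond the annotated hairpin. The origin of these reads was not tested.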

How the results depend on the processing

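The libraries share 1 condition, so no paired analysis of conditions was possible. Within each library the arms of a hairpin were compared as pairs, and shifted starts were set against their reference start. Single-locus reads and reads of 18 to 25 nt left all 74 values tried under each within 1 SD of the libraries, and no 3p to 5p ratio changed its side of 1 under any alternative run. A leading end or length counted as moved if it changed, and any other value if it shifted by at least 1 SD. Over all settings that kept every library, 81 values moved and 184 did not. With a library left out 2 moved, both a leading end or length, and 220 did not. Leaving out 1 of 3 libraries cannot shift a mean by 1 SD, so for the other values this count shows nothing.

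Exact reads alone gave 1316 RPM for miR-151-5p, 2058 for miR-151-3p, 112 for miR-28a-5p, 52.2 for miR-28a-3p, 3.94 for miR-708-5p and 20.2 for miR-708-3p, as mismatched reads no longer counted. Scaled to exact reads, levels were 2528, 4550.3, 252, 100.1, 10.7 and 39.4 in the same order. Scaled to reads other than the miR-375 start, they were 2800.5, 5029, 279.95, 111, 11.9 and 43.7. The order of the arms held in each. The order of some starts did not hold with exact reads: miR-151-3p-1 (24.4) fell below miR-151-5p-1 (29.3), miR-151-3p-2 (15.2) below miR-708-3p (17.5), and miR-28a-3p+1 (1.89) below miR-708-3p+1 (2.27), and miR-151-3p+2 (0.953) became the lowest.

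With exact reads the ratio of 3p to 5p was 1.56 in Mir151, 0.467 in Mir28a and 5.14 in Mir708, and with the reference start alone it was 3.33 in Mir708. Shifted shares with exact reads were 2.42% (miR-151-5p), 2.47% (miR-151-3p), 1.34% (miR-28a-5p), 5.15% (miR-28a-3p), 0% (miR-708-5p) and 13.6% (miR-708-3p), and 10.2% within 2 nt for miR-708-3p. Of all reads of the reference start, 2.08%, 23.3%, 10.2%, 18.1%, 9.24% and 15.6% had a tail of 1 base and no other mismatch, in that order of arms. Longer tails and tails of reads with another mismatch were not counted here. The cause of the changes in ratio, start and tail was not tested. The leading length of miR-708-3p differed between libraries, 20 nt (32.8%), 23 nt (37.5%) and 22 nt (36.7%) in replicates 1, 2 and 3. By the mean it was 23 nt, or 22 nt with exact reads. Leaving out each library gave 22 to 23 nt, with 22 nt without replicate 2.

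Depth limited miR-708-5p, with 75 to 78.5 reads per library, and shifted starts under 10 reads. Added bases equal to the genome were not seen. Mir708 was placed with few bits. The libraries give no condition to compare, and 3 of them allow no p below 0.25 in the exact permutation test.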
